A study of Mus musculus with 11 samples.

Results

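Gastrocnemius muscle of mice in which Raptor had been deleted was compared with wild-type gastrocnemius across all expressed genes. The libraries were grouped by their labelled genotype alone: 3 Raptor-knockout and 4 wild-type libraries, 7 of the 11 in the study. This comparison, the gene lists and the genes named were chosen with earlier results of these data known. The other 4 libraries came from muscle labelled as Raptor mTOR double knockout, and they entered the fit as a group of their own. Raptor-knockout mice had floxed Raptor alleles, and Cre came from the human skeletal actin (HSA) promoter as an inducible fusion with a mutated estrogen receptor domain. That promoter is active in muscle fibres, so the fibroblasts, vessels, nerves and immune cells of the same muscle are not expected targets. Double-knockout mice had floxed mTOR alleles in addition. All 3 groups are labelled as tamoxifen treated, the wild-type mice too. Tamoxifen was started at 3 months of age and given in chow for 7 weeks, and the gastrocnemius was taken 7 months after its start. The labels name wild type without saying whether these mice carried Cre or floxed alleles, and sex is not given. They also do not say that each library is a separate animal, so the p-values here measure the spread between these libraries.

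Raptor, encoded by Rptor, is the subunit that brings substrates to mTOR complex 1, and Rictor defines mTOR complex 2. In muscle, mTOR complex 1 is known to promote translation through the S6 kinases and the 4E-BP proteins, to hold back autophagy through the ULK kinases and the transcription factor TFEB, and to be needed for the growth and upkeep of fibres. Messenger RNAs whose first bases form an unbroken pyrimidine run, the terminal oligopyrimidine (TOP) mRNAs of ribosomal proteins and elongation factors, depend on it for translation and are bound by the protein LARP1.

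The libraries were QuantSeq 3′ mRNA FWD, a method that gives tags from the polyadenylated ends of transcripts, and the input was 450 ng of RNA each. The 4 wild-type libraries held 3134575 to 6328533 counts and the 3 Raptor-knockout libraries 3223797 to 3764879. Levels below are CPM, counts scaled to library size with edgeR's TMM factors, folds are edgeR's, and a gene is said to rise or fall where the adjusted p of edgeR's quasi-likelihood test was under 0.05. Of 10505 genes tested, 917 were higher in Raptor-knockout muscle (8.73%) and 991 lower (9.43%), together 1908 or 18.2%. For 2866 genes (27.3%) the 2 groups did not overlap, and 1768 genes both passed the test and did not overlap. Many genes named below were chosen for a small adjusted p or for a large change with non-overlapping groups. Where their groups are said to be apart, this is therefore no added evidence. More than 2-fold changes were called for 423 higher and 410 lower genes, and the smallest fold called was 1.29. Scaling by library totals gave 1638 higher and 573 lower genes, and the deposited TPM values with a pseudocount of 1 gave 1031 and 519, so the balance of higher to lower depends on the scaling. The first principal component, 44.5% of the variance, placed the wild-type libraries at -31.9 to -23.3 and the Raptor-knockout libraries at 27.3 to 43.4. Leaving out Raptor-knockout replicate 1 left 556 higher and 584 lower genes, and leaving out replicate 3 left 597 and 627.

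Some libraries stood apart in ways the genotype does not give. Wild-type replicate 3 alone of the 7 had Xist RNA (112 CPM of its total) and no Ddx3y, while the other 6 had Ddx3y and no Xist. Of the mitochondrial 16S ribosomal RNA, mt-Rnr2, wild-type replicates 1 to 3 had 23937 to 32851 CPM and Raptor-knockout replicate 2 had 22888. The other 3 libraries, wild-type replicate 4 and Raptor-knockout replicates 1 and 3, had 3293 to 4470. Titin (Ttn), the giant protein that spans each sarcomere from Z-disc to M-line, split the libraries the same way. Its level was 27145, 22201, 22653 and 11975 CPM in wild type and 7061, 18451 and 6109 in Raptor knockout. Ttn did not pass (log2 change -0.99 ± 0.48 (SE), adjusted p = 0.196). It did pass without Raptor-knockout replicate 2 (-1.67, adjusted p = 0.0227) and, with a smaller change, with mt-Rnr2 as a covariate (-0.45, adjusted p = 0.0375). The titles in the labels open with numbers whose meaning is not given: 36 to 54 for wild-type replicates 1 and 2 and all 3 Raptor-knockout libraries, and 73 and 77 for wild-type replicates 3 and 4. Results were recomputed in the first 5 of these alone, without each library, among the libraries lacking Xist and with Xist or mt-Rnr2 as a covariate.

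Rptor itself, on chromosome 11 (GRCm38 chr11:119602905-119899576), was at 10.6, 9.65, 10.5 and 8.57 CPM in wild type and at 3.85, 4.87 and 4.99 in Raptor knockout. The groups did not overlap, and the mean went from 9.83 ± 0.946 (SD, n = 4) to 4.57 ± 0.630 (n = 3), a 2.15-fold fall (edgeR adjusted p = 0.00282). The 3′ tags lie at the end of the gene and the labels do not say which exons are floxed, so the remaining tags cannot be assigned to intact RNA or to fibres as against other cells. On the TPM scale with a pseudocount of 1 the fall was 0.50 in log2 and did not pass. Mtor, the kinase, did not pass either, with a log2 change of -0.02 ± 0.20 (SE, adjusted p = 0.962).

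Across the 49 tested genes of the mTOR pathway, 3 were higher (6.12%) and 12 lower (24.5%). The median log2 change was -0.27 against 0.00 over all genes tested. The lower genes include Rptor itself, whose deletion defines the groups. On library totals the counts were 6 and 8 (median -0.07), and on TPM with a pseudocount of 1 they were 3 and 5. Among 21 upstream sensors and inhibitors 1 rose (4.76%) and 3 fell (14.3%), and 17 did not pass. Ddit4l, a stress-induced inhibitor of mTOR complex 1 also called REDD2, was at 278, 313, 372 and 291 CPM in wild type and 126, 122 and 107 in Raptor knockout, a 2.64-fold fall (adjusted p = 1.3e-05). Tsc1, a subunit of the complex that switches off the Rheb GTPase, fell 1.85-fold, from 38.8 ± 5.91 to 21.0 ± 1.97 CPM. Among the 7 downstream effectors 4 fell and none rose. Larp1, the TOP mRNA-binding protein, fell from 225 ± 14.1 to 144 ± 7.48 CPM. Eif4ebp2, a translation repressor that mTOR complex 1 inactivates, fell 2.71-fold, and Eif4ebp1 did not pass (log2 change -0.31 ± 0.17). Rictor was at 23.7, 22.2, 25.5 and 16.2 CPM in wild type and 6.67, 13.5 and 6.16 in knockout, a 2.49-fold fall whose highest knockout value is that of replicate 2. The genes that rose were Grb14, an adaptor that restrains the insulin receptor (9.37 ± 2.71 to 20.4 ± 2.63 CPM), Lamtor3, part of the Ragulator complex at the lysosome (39.0 ± 3.65 to 61.7 ± 1.70 CPM), and Akt1 (log2 change 0.81), named after its value was seen. The call for Rictor was lost on the TPM scale and that for Akt1 without wild-type replicate 3 or Raptor-knockout replicate 1 or 3 (log2 change 0.66 to 0.77), and without Raptor-knockout replicate 3 the list had 2 higher and 7 lower genes.

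The largest rise among genes of middling or high level was in Ankrd1, which encodes a stretch-responsive repeat protein of the I-band that also acts in the nucleus (chr19:36111961-36120099). It was at 58.4, 34.7, 36.3 and 23.0 CPM in wild type and 601, 874 and 571 in Raptor knockout, 17.9-fold higher (adjusted p = 3.93e-07). Each knockout library was thus far above the highest wild-type one. Among 34 tested genes of the shared sarcomere, Z-disc and stress proteins, 14 rose (41.2%) and 4 fell (11.8%), with a median log2 change of 0.31. Xirp1, a repeat protein of damaged and remodelling myofibrils, rose from 22.3 ± 4.44 to 109 ± 22.6 CPM, and Actn2, the Z-disc crosslinker of all fibres, from 239 ± 107 to 1066 ± 67.2. Fhl1, a LIM protein of the sarcomere, rose 2.53-fold. Ankrd23, a close relative of Ankrd1, moved the other way: 1226, 1395, 1273 and 1443 CPM in wild type against 345, 209.5 and 305 in knockout, a 4.66-fold fall. Mylk4, a myosin light chain kinase family member, fell 5.27-fold. Acta1, the skeletal actin and one of the most abundant muscle mRNAs, rose 1.43-fold, from 25427 ± 1165 to 36238 ± 3251 CPM. Without Raptor-knockout replicate 2 the list had 12 higher and 7 lower genes.

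**Figure D1:**
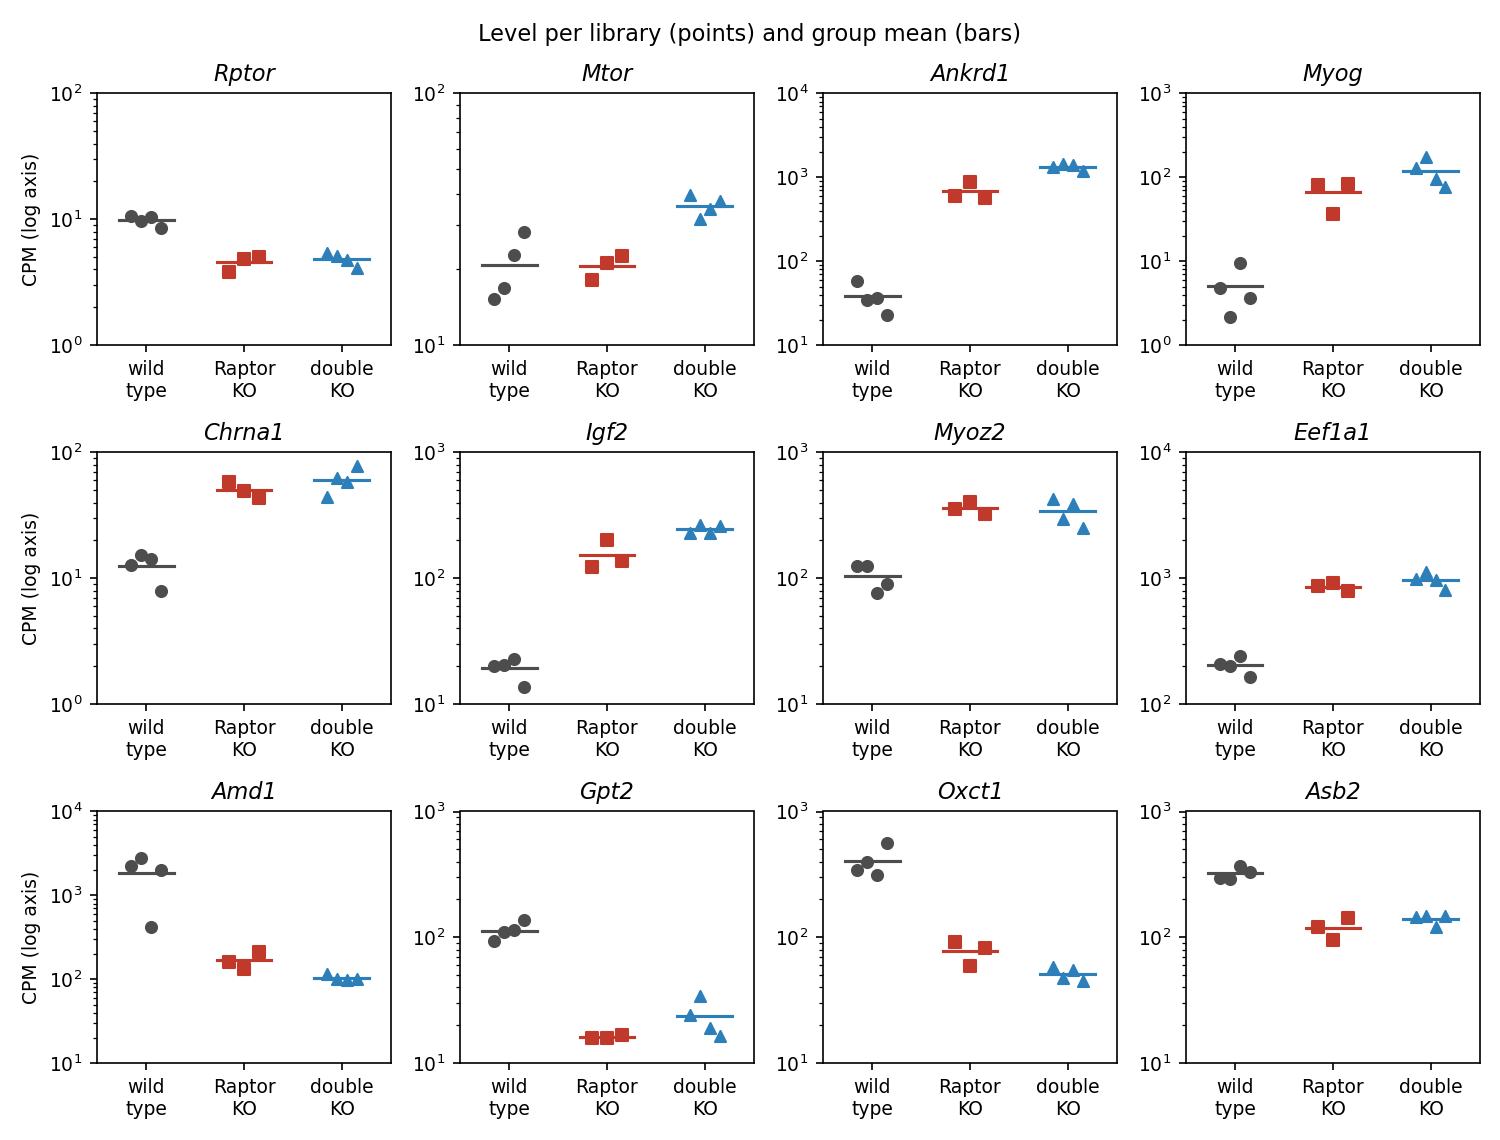
Level in CPM on a log axis for 12 genes, 1 point per library, in wild type (4 libraries), Raptor knockout (3) and double knockout (4), with a bar at each group's mean. The Raptor-knockout libraries lie above every wild-type library for Ankrd1, Myog, Chrna1, Igf2, Myoz2 and Eef1a1 and below them for Rptor, Amd1, Gpt2, Oxct1 and Asb2, while the groups overlap for Mtor.

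Among genes of developing and regenerating fibres, 8 of 19 tested rose (42.1%) and none fell, with a median log2 change of 0.71. The lists share genes: Myog and Ncam1 are also counted in the junction and denervation list, and Igf2 among the secreted signals. Myh3, the embryonic myosin heavy chain, was at 4.83, 2.15, 3.13 and 3.38 CPM in wild type and 42.6, 59.6 and 54.6 in Raptor knockout, 15.1-fold higher (adjusted p = 2e-07). Myh8, the perinatal myosin, was at 2.53, 1.07, 2.30 and 4.73 CPM and 17.7, 44.9 and 22.9, 10.2-fold higher. Both myosins are normally replaced by adult forms after birth. Igf2, the fetal insulin-like growth factor, rose 7.95-fold, from 19.3 ± 3.90 to 154 ± 42.6 CPM. The myogenic factors Myog and Myod1 also rose. Myog (chr1:134289989-134292548) was at 4.83, 2.15, 9.54 and 3.61 CPM in wild type and 81.5, 36.5 and 82.5 in Raptor knockout, 12.3-fold higher (adjusted p = 0.000361), and Myod1 went from 10.7 ± 1.82 to 23.4 ± 3.21. On the TPM scale with a pseudocount of 1 the log2 changes of Myh3 and Myh8 were smaller, 2.61 and 1.90, and both still passed, while without wild-type replicate 3 or 4 the list had 11 or 8 higher and 1 lower. Of 5 tested markers of satellite cells, the stem cells that express such factors when activated, 1 rose: Itga7, an integrin that fibres also make, from 27.9 ± 7.87 to 66.7 ± 8.43 CPM. The summed level of these markers, Itga7 included, was 58.6 to 73.3 CPM in wild type and 91.2 to 114 in Raptor knockout. Most of that difference was in Itga7. Of the 5 markers 3 had a positive log2 change and 2 a negative one, Sdc4 (-0.25) and Chodl (-0.36). The part of satellite cells in the rise of Myog and Myod1 was not tested. In bulk muscle, more cells of a type and more RNA per cell cannot be told apart.

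Muscle that loses its nerve supply is known to raise the acetylcholine receptor genes along the whole fibre, through Myog and Myod1 binding to E-boxes in their promoters. Of 23 tested genes of the neuromuscular junction and of denervation, 12 rose (52.2%) and 2 fell (8.70%), with a median log2 change of 0.92. The parts of this list differed. Receptor subunits had 3 of 4 higher (median 1.67) and junction organisers 5 of 8 (median 0.94). The 11 tested denervation-response genes had 4 higher and 2 lower, with a median of -0.07. Their summed level was 679 to 1643 CPM in wild type and 577 to 618 in Raptor knockout. Most of that difference was in Trim63, described further on among the atrophy genes, so the sum does not stand for the group. Chrna1, the receptor's alpha subunit, was at 12.7, 15.4, 14.1 and 7.89 CPM in wild type and 57.9, 49.3 and 43.7 in Raptor knockout, 4.04-fold higher (adjusted p = 2.32e-05). Chrnb1, the beta subunit, was at 14.3, 18.2, 16.6 and 12.8 CPM and 43.6, 33.6 and 38.2, 2.49-fold higher (adjusted p = 0.000134). Chrnd, the delta subunit, was low throughout: no tag to 1.35 CPM in wild type and 2.05 to 3.33 in knockout (adjusted p = 0.0173). Chrne, the adult epsilon subunit, was at 3.87 ± 1.52 CPM in wild type and 6.32 ± 1.20 in knockout, groups that overlapped, and did not pass (adjusted p = 0.158). The fetal gamma subunit, Chrng, was not among the genes tested. Other junction genes that rose were Prkar1a, a regulatory subunit of protein kinase A (99.98 ± 8.74 to 189.8 ± 3.20 CPM), Dok7, the adaptor of the kinase MuSK (7.45 ± 1.87 to 14.99 ± 0.816), and Ncam1, a cell adhesion molecule (6.40 ± 0.426 to 17.03 ± 3.46). The 2 that fell, both counted among the denervation-response genes, were Trim63 and Fbxo32, the ubiquitin ligases of atrophy. They were named after their values were seen and are described further on. The call for Chrnd was lost without Raptor-knockout replicate 1 (log2 change 2.05 against 2.17; 2.85 without wild-type replicate 4), that for Ncam1 was lost on TPM without a filter, and without that replicate the list had 9 higher and 1 lower genes (11 and 1 without replicate 3). The list had 7 higher and 1 lower among libraries lacking Xist, where the Chrnd call was also lost (log2 change 2.18), and 6 and 1 on TPM without a filter, where Chrnd had a log2 change of 0.72 and did not pass.

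The promoters of these genes are shown because an E-box, CAGNTG or its reverse complement CANCTG, is the sequence that myogenic factors bind. The 150 bases before the RefSeq start site (GRCm38.p6) follow on each gene's own strand, with E-boxes in capitals.
Chrna1 (chr2:73580339-73580488, minus strand): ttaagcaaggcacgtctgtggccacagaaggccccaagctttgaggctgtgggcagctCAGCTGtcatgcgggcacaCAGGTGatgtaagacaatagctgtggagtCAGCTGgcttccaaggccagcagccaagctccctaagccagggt
Chrnb1 (chr11:69795938-69796087, minus strand): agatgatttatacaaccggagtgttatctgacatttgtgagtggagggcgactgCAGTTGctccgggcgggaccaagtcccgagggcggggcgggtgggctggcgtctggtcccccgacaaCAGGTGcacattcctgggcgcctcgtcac
Chrne (chr11:70619195-70619344, minus strand): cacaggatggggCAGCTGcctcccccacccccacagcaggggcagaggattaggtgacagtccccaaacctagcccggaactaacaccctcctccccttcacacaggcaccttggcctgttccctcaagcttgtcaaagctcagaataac
Myog (chr1:134289854-134290003, plus strand): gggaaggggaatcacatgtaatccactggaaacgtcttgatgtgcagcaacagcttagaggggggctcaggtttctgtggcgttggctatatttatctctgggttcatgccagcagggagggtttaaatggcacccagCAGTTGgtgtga
Chrna1 holds 3 E-boxes, starting at -92, -73 and -44 from the start site, Chrnb1 holds 2, at -96 and -29, and Chrne and Myog hold 1 each, at -138 and -12. In the 250 bases before the start, at least 1 E-box was found for 13 of the 18 junction genes with a promoter sequence (72.2%), for 3346 of 8031 tested genes (41.7%), for 44.4% of genes called higher and for 43.8% of genes called lower. At least 3 were found for 2.13% of tested genes. A match says that these letters are present and not that a factor was bound.

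Many sarcomere genes split by fibre type. Of 12 tested genes of the slow-fibre sarcomere, 9 rose and none fell (median log2 change 1.27), a count that held within 1.5 times under every alternative run. Of 15 genes of the fast-fibre sarcomere, 8 fell (53.3%), 2 rose (13.3%) and 5 did not pass (median -0.46). Myh7, the slow myosin heavy chain, was at 121, 89.4, 60.9 and 102 CPM in wild type and 224, 236 and 247 in Raptor knockout, 2.53-fold higher (adjusted p = 0.000596). Tnni1, slow troponin I, was at 40.0, 29.0, 21.9 and 30.4 CPM and 141, 119 and 146, 4.47-fold higher. Every knockout library was above every wild-type one for both genes, a separation that the choice of named genes favoured. Myoz2, which anchors calcineurin at the Z-disc of slow fibres, rose 3.48-fold, and Myl2, Tnnc1 and Tnnt1, the slow light chain and the slow troponins C and T, rose 2.36-fold, 2.46-fold and 2.45-fold. Atp2a2, the slow calcium pump, had non-overlapping groups and did not pass (log2 change 0.64 ± 0.22, adjusted p = 0.0543).

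On the fast side, Tnni2, Tnnt3 and Tnnc2, the fast troponins, fell 1.86-fold, 1.86-fold and 1.52-fold from levels of 14569.8 ± 1453, 9818 ± 457 and 22488 ± 1323 CPM. Actn3, the Z-disc actinin of fast fibres, fell from 3161 ± 379 to 1928 ± 232 CPM, the opposite of Actn2. Tpm1, the alpha tropomyosin, was at 21030.1, 19557, 19477 and 19686 CPM in wild type and 10103, 8831 and 10618 in knockout, a 2.02-fold fall (adjusted p = 2.05e-05). Tpm2, the beta tropomyosin, rose 1.82-fold. The fast heavy chain Myh4 fell by 0.46 in log2. The abundant fast genes Mylpf and Myl1, both light chains, and Atp2a1, a calcium pump, did not pass. Their log2 changes were 0.03, -0.06 and -0.27. The 2 fast genes that rose were Myh1, the IIx heavy chain (1717 ± 274 to 3462 ± 1269 CPM), and Mybpc2, a myosin-binding protein (log2 change 0.39). Myh1 was led by Raptor-knockout replicate 2 at 4919 CPM, and its call was lost without any 1 wild-type library (adjusted p 0.053 to 0.093) and without Raptor-knockout replicate 2 (log2 change 0.67). The Mybpc2 call was lost without wild-type replicate 1, 2 or 3 or Raptor-knockout replicate 1 or 3 (log2 change 0.33 to 0.40). The Myh4 call was lost without Raptor-knockout replicate 1 or 3, on library totals and on the TPM scale, and no fast-fibre gene was called higher without wild-type replicate 1, 2 or 3 or with no filter, and 1 was without any other library. There was also 1 with Xist or mt-Rnr2 as a covariate, in the libraries with title numbers 36 to 54 and among those lacking Xist, beside 7, 10, 6 and 6 lower in that order.

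**Figure D2:**
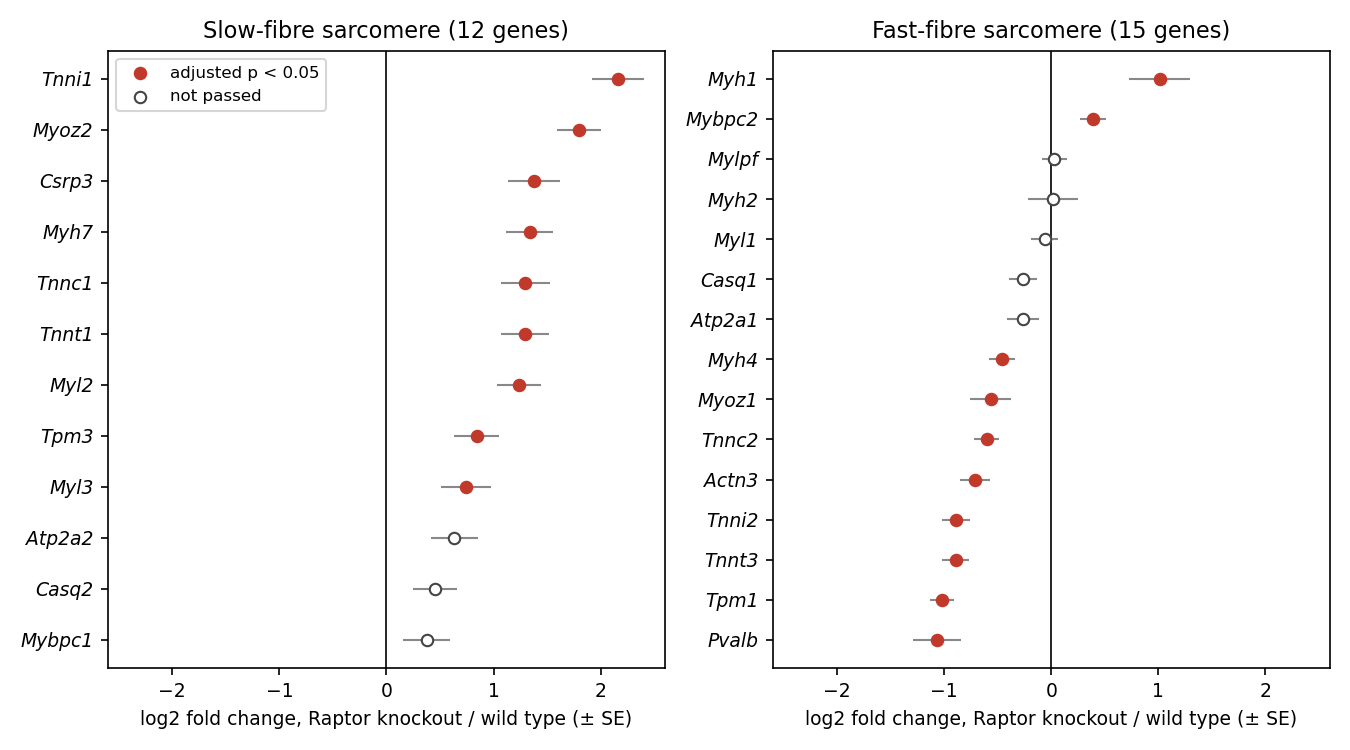
Log2 fold change of Raptor knockout over wild type, with its standard error, for each tested gene of the slow-fibre (12) and fast-fibre (15) sarcomere lists; filled points passed at an adjusted p under 0.05. The 9 slow-fibre genes that passed are all to the right of 0, and 8 of the 10 fast-fibre genes that passed are to the left.

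Calcium handling shifted in a similar mix: of 41 tested genes of excitation-contraction coupling, 5 rose (12.2%) and 11 fell (26.8%). The median log2 change was -0.25. Sln, sarcolipin, a small inhibitor of the calcium pump that is scarce in adult fast muscle, was at 32.9, 13.6, 6.91 and 6.31 CPM in wild type and 114, 115 and 141 in Raptor knockout, 8.31-fold higher (adjusted p = 0.00253). Pln, phospholamban, another pump inhibitor, rose from 1.24 ± 0.555 to 5.70 ± 2.81 CPM. Mrln, myoregulin, the pump inhibitor of fast fibres, fell instead, from 145 ± 9.27 to 56.2 ± 12.5. Trdn, the triadin that ties the calcium store to the release channel, fell from 8447 ± 1138 to 4764 ± 343 CPM. Pvalb, the fast-fibre calcium buffer parvalbumin, fell 2.09-fold, and Cacng1, a subunit of the voltage sensor, rose 1.93-fold. Without wild-type replicate 1 the log2 change of Sln was 3.86 against 3.06, and without wild-type replicate 4 the list had 8 higher and 13 lower genes. The larger number of falls depended on the scaling: the counts were 10 higher and 9 lower on library totals (median log2 change -0.06), 6 and 6 on TPM with a pseudocount of 1, and 4 and 4 on TPM without a filter. In the 5 libraries with title numbers 36 to 54 the Pvalb call was lost (log2 change -1.04).

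Among 24 tested genes of the membrane, costamere and intermediate filaments, 9 rose (37.5%) and 1 fell (4.17%). Nes, nestin, an intermediate filament protein of developing and regenerating fibres that adult fibres keep at the nerve and tendon contacts, rose from 15.3 ± 1.53 to 40.5 ± 8.39 CPM. Lmna, the nuclear lamin A/C, rose 1.83-fold. Anxa1, an annexin of membrane repair, rose from 7.85 ± 3.88 to 22.2 ± 5.16 CPM. The gene that fell was Synm, synemin, a filament protein that joins desmin to the costamere, at 831, 783, 604 and 437 CPM in wild type and 215, 263 and 157 in Raptor knockout. The knockout range lay wholly below the wild-type one. Without Raptor-knockout replicate 3 the list had 6 higher and 2 lower genes, and without wild-type replicate 3 it had 8 and 2. With mt-Rnr2 as a covariate it had 7 and 3.

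Most ribosomal protein genes rose. Of 79 cytosolic ribosomal protein genes, all of which were tested, 67 rose and none fell (84.8% against 8.73% of all genes), with a median log2 change of 0.69 and a range of -0.01 to 1.86. The large subunit had 41 of 47 higher and the small subunit 26 of 32. Summed over the list, the level was 25691 to 30732 CPM in wild type and 44479 to 46633 in Raptor knockout. Rps20 was at 402, 393, 476 and 603 CPM in wild type and 1096, 1095 and 1095 in Raptor knockout, 2.34-fold higher (adjusted p = 6.51e-05). Rpl39 went from 344 ± 77.2 to 769 ± 10.9 CPM, Rpl23 from 681 ± 83.7 to 1489 ± 21.4 and Rpl36a from 307 ± 39.3 to 646 ± 9.45. The knockout libraries were closely grouped for these genes and never met the wild-type range. These genes were named for having the smallest adjusted p of the list, a choice that favours such grouping. Ribosomal protein genes have many processed copies in the genome, and reads shared with a copy may be counted to either. No alternative moved this count by more than 1.5 times.

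The other TOP mRNAs rose too, 16 of 31 tested (51.6%) and none falling (median log2 change 0.57). Eef1a1, the elongation factor that brings aminoacyl-tRNA to the ribosome and is known to be replaced by Eef1a2 in adult fibres, was at 209.6, 202, 243 and 166 CPM in wild type and 869, 917 and 797 in Raptor knockout, 4.20-fold higher (adjusted p = 3.93e-07). Eef1a2 itself rose 1.72-fold, from 628 ± 29.9 to 1082 ± 103 CPM. Eef2, the translocation factor, rose 1.64-fold. Hnrnpa1, an RNA-binding protein of splicing, rose from 45.5 ± 2.16 to 119.6 ± 9.63 CPM, and Tpt1, which encodes a translationally controlled protein, from 2553 ± 189.5 to 3969 ± 250.3. Non-coding hosts of small nucleolar RNAs with TOP-type starts rose as well: Gas5 2.31-fold, Zfas1 1.85-fold and Epb41l4aos 2.55-fold. The 6 tested paralogs of ribosomal proteins, some of them muscle-rich, did not pass in either direction at an adjusted p under 0.05 (median log2 change 0.13), while 1 rose on library totals, with mt-Rnr2 as a covariate and in the libraries with title numbers 36 to 54. Rpl3l, the muscle paralog of Rpl3, was at 346 ± 47.9 and 367 ± 41.5 CPM, and Rpl36al at 255 ± 19.5 and 266 ± 21.8, each pair of groups overlapping.

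The start sites are shown because a TOP mRNA begins with a C inside a pyrimidine run. Each line gives the 15 bases before and after the RefSeq start on the gene's strand (GRCm38.p6), with a run of at least 7 pyrimidines that opens with C in capitals. The first 5 genes rose, with or without such a run, and the last 3 are paralogs that did not pass.
Rpl38 (chr11:114668565-114668594, plus strand): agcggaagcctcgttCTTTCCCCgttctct
Rplp2 (chr7:141447636-141447665, plus strand): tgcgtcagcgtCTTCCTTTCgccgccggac
Rps18 (chr17:33955651-33955680, minus strand): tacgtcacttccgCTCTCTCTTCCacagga
Eef1a1 (chr9:78481710-78481739, minus strand): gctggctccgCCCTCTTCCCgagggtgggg
Eef2 (chr10:81176616-81176645, plus strand): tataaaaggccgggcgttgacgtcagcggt
Rpl36al (chr12:69184053-69184082, minus strand): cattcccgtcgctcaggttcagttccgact
Rpl7l1 (chr17:46782642-46782671, minus strand): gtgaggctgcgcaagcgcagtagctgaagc
Rpl22l1 (chr3:28805493-28805522, plus strand): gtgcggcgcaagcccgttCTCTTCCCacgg
Rpl38, Rplp2 and Rps18, chosen for their start sites, rose 1.81-fold, 1.69-fold and 1.72-fold, and Rpl7l1 did not pass (log2 change 0.16 ± 0.15). Such a run was found in this window for 30 of 58 ribosomal protein genes with a sequence (51.7%), for 7 of 22 other TOP mRNAs (31.8%), for 2 of the 6 paralogs (33.3%), for 18.2% of tested genes, and for 12.3% of nuclear genes of the respiratory chain. Among ribosomal protein genes, it was found for 28 of 49 that rose and for 2 of 9 that did not pass. Annotated start sites can be several bases off the true cap, so the absence of a run from this window says only that these letters are not there.

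**Figure D3:**
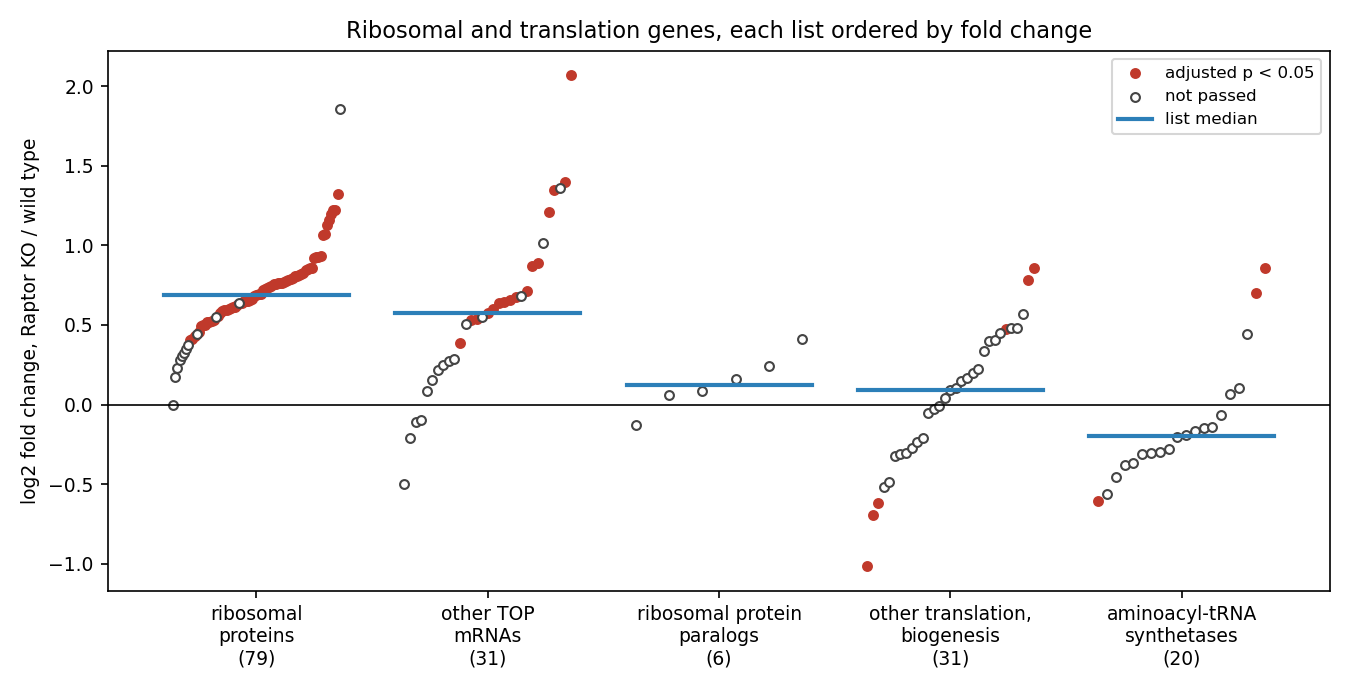
Log2 fold change of Raptor knockout over wild type for every tested gene of 5 lists: ribosomal proteins (79), other TOP mRNAs (31), ribosomal protein paralogs (6), other translation and ribosome biogenesis genes (31) and aminoacyl-tRNA synthetases (20); filled points passed, and bars mark list medians. The ribosomal proteins and other TOP mRNAs have medians of 0.69 and 0.57, and none of their members that passed is below 0.

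The rest of the translation machinery did not share this pattern in its counts. Of 31 tested genes of initiation and ribosome biogenesis, 3 rose and 3 fell (9 and 1 on library totals, 5 and 1 on TPM with a pseudocount of 1). Each share was 9.68%, near the 8.73% higher and 9.43% lower over all genes. Ncl, nucleolin, a processing factor of ribosomal RNA, rose from 208 ± 30.7 to 377 ± 57.5 CPM. Of 20 cytosolic aminoacyl-tRNA synthetases 2 rose and 1 fell, Kars, the lysyl-tRNA synthetase, rising 1.63-fold. Among 24 tested ATF4 targets and endoplasmic reticulum chaperones none rose and 2 fell (8.33%). One of them was Herpud1, a protein of endoplasmic reticulum quality control (79.9 ± 5.02 to 51.6 ± 5.49 CPM).

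Of 27 tested heat shock protein genes 10 rose (37.0%) and 2 fell (7.41%), with a median log2 change of 0.29. Small heat shock proteins, which guard sarcomeric proteins, made up 5 of the 10. Hspb8, which works with Bag3 in clearing damaged filamin, was at 437, 521, 352 and 546 CPM in wild type and 1072, 833 and 1154 in Raptor knockout, 2.20-fold higher (adjusted p = 0.000175). Cryab, alpha B-crystallin, a chaperone of desmin and titin, was at 992, 896, 793 and 1530.3 CPM and 2150.3, 2079 and 2008, 1.97-fold higher. For both the knockout libraries were all above the wild-type range. Of 21 tested immediate early genes 2 rose (9.52%, near the 8.73% over all genes) and none fell. They were Klf10 (24.96 ± 11.7 to 85.5 ± 18.8 CPM) and Junb (5.88 ± 3.23 to 18.5 ± 4.39), both transcription factors. The heat shock count was 9 higher and 1 lower without wild-type replicate 2, 10 and 0 without Raptor-knockout replicate 2, 6 and 0 among libraries lacking Xist, and 14 and 0 on library totals. The immediate early count was 4 without wild-type replicate 3, the library with Xist, and 10 in the 5 libraries with title numbers 36 to 54.

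Genes of polyamine, amino acid and ketone metabolism were prominent among the falls, in a group that also holds creatine and adenine nucleotide genes. Of 45 tested, 3 rose (6.67%) and 19 fell (42.2%), with a median log2 change of -0.43. Polyamines are made from ornithine and from decarboxylated S-adenosylmethionine. Amd1, whose enzyme makes the latter (chr10:40287458-40302186), was at 2248, 2756, 420.1 and 2034 CPM in wild type and 163, 133 and 213 in Raptor knockout, 10.995-fold lower (adjusted p = 0.00301). Its near-identical copy Amd2 fell 14.97-fold, and reads shared between the copies cannot be assigned. Wild-type replicate 3 had the lowest wild-type level of both and was still above each knockout library. Odc1, ornithine decarboxylase, the first step, fell from 186 ± 36.4 to 74.0 ± 9.90 CPM. Smox, spermine oxidase, fell 4.31-fold. Azin1, an antizyme inhibitor that protects ornithine decarboxylase, rose 2.08-fold, from 18.2 ± 2.29 to 37.9 ± 0.950 CPM.

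Among amino acid and ketone genes 10 of 23 fell and none rose. Gpt2, the mitochondrial alanine transaminase (chr8:85492576-85527560), was at 92.7, 110.1, 114 and 137 CPM in wild type and 15.9, 16.0 and 16.7 in Raptor knockout, 6.98-fold lower (adjusted p = 1.47e-06). Oxct1, the enzyme that lets muscle burn ketone bodies (chr15:4026383-4155344), was at 339.9, 397, 314 and 564 CPM and 92.0, 59.3 and 82.2, 5.18-fold lower (adjusted p = 3.24e-06). Neither gene's groups overlapped, which the rule for naming the largest falls required. Bckdhb, a subunit of the branched-chain keto acid dehydrogenase, fell 3.39-fold, from 23.8 ± 1.11 to 7.03 ± 2.18 CPM. Ampd1, the AMP deaminase of fast muscle, fell 2.16-fold, while Ckm, the muscle creatine kinase, was at 8774 ± 1148 and 7884 ± 602 CPM and did not pass. Without wild-type replicate 4 the whole group had 6 higher and 20 lower genes, and on library totals it had 5 and 15.

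Of 38 tested genes of glycolysis and glycogen 4 rose (10.5%) and 10 fell (26.3%), with a median log2 change of -0.33. Glycogen genes made up 6 of the falls, with 6 of 15 tested lower and 2 higher. Phka1 and Phkg1, the muscle alpha and gamma subunits of phosphorylase kinase, fell 2.89-fold and 2.35-fold, from 491 ± 25.7 to 170.1 ± 34.0 CPM and from 224 ± 27.5 to 95.2 ± 7.76. Pygm, muscle glycogen phosphorylase, their substrate, fell 1.71-fold. Ppp1r1a, an inhibitor of protein phosphatase 1, fell from 63.2 ± 17.2 to 17.6 ± 2.68 CPM. Pfkfb1, which sets the level of fructose 2,6-bisphosphate, fell 3.56-fold. Gapdh, a glycolytic enzyme often used as a reference gene, rose from 886 ± 68.2 to 1442 ± 122 CPM. Without Raptor-knockout replicate 1 the group had 2 higher and 9 lower genes, and without replicate 3 it had 2 and 8.

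Nuclear genes of the respiratory chain had a median log2 change of 0.00, and 3 of 79 rose and 1 fell, shares below those over all genes. Within complex IV, 2 of 13 tested genes rose and 1 fell, and the tissue-specific forms of subunit 6a moved in opposite directions. Cox6a2, the heart and muscle form of subunit 6a, was at 2138, 2076, 1949.5 and 2897 CPM in wild type and 1423, 1326 and 1383 in Raptor knockout, 1.64-fold lower (adjusted p = 0.00194). Cox6a1, the form of other tissues, was at 22.1, 18.2, 26.5 and 35.6 CPM and 49.996, 47.6 and 48.1, 1.88-fold higher (adjusted p = 0.00331). Cox8a, likewise the non-muscle form of its subunit, rose 2.48-fold, from 47.7 ± 7.01 to 118 ± 6.11 CPM. Of the 15 mitochondrially encoded genes none rose and 1 fell, mt-Nd2 (6.67%, log2 change -0.73). Their median log2 change was -0.20, with 12 negative and 3 positive. They summed to 273123 to 348207 CPM in wild type and 241185 to 259784 in Raptor knockout. Mss51, a protein of muscle mitochondria, fell 7.95-fold, from 154 ± 62.8 to 19.3 ± 6.65. Pdp1, the phosphatase that activates pyruvate dehydrogenase, fell 2.41-fold. It was 1 of 2 tricarboxylic acid cycle genes of 27 to fall (7.41%), with none rising. Of 36 genes of fatty acid use 2 fell (5.56%), with none rising. Both shares of falls are below the 9.43% over all genes. The respiratory chain count moved with single libraries: without wild-type replicate 4 it was 14 higher and 1 lower, without wild-type replicate 3 it was 3 and 8, and with mt-Rnr2 as a covariate 4 and 15. It was 9 and 1 on library totals and 11 and 6 in the libraries with title numbers 36 to 54. The tricarboxylic acid cycle count was 0 and 5 without wild-type replicate 3, 5 and 3 without wild-type replicate 4, 4 and 1 on library totals and 3 and 3 on TPM with a pseudocount of 1. The count for fatty acid use was 0 and 7 with mt-Rnr2 as a covariate.

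**Figure D4:**
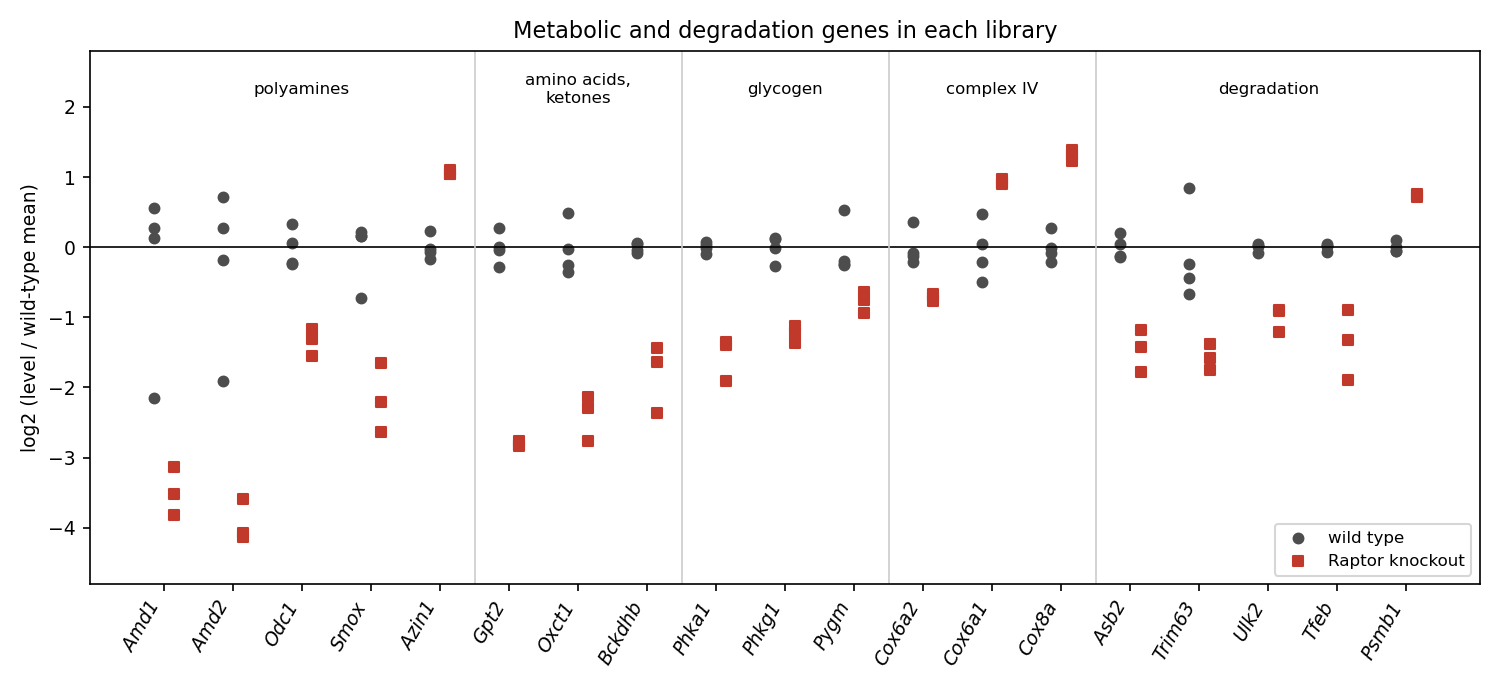
Level in each library divided by the wild-type mean, as log2, for 19 named genes of polyamine, amino acid, glycogen, mitochondrial and degradation lists, with wild-type and Raptor-knockout libraries as separate points. Knockout points lie below 0 for all genes shown except Azin1, Cox8a, Cox6a1 and Psmb1, and wild-type replicate 3 is the low wild-type point of Amd1 and Amd2.

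Of 26 tested ubiquitin ligases and atrophy regulators none rose and 12 fell (46.2%), with a median log2 change of -0.60. Asb2, a ligase subunit of muscle known to limit fibre mass, was at 296, 292, 372 and 333 CPM in wild type and 121, 94.5 and 142 in Raptor knockout, 2.71-fold lower (adjusted p = 1.83e-05). Asb15, of the same family, fell 5.02-fold, from 47.0 ± 6.44 to 9.26 ± 2.64 CPM. Fbxo31, an F-box protein, fell 2.86-fold. Foxo4 and Klf15, transcription factors upstream of atrophy genes, fell 2.92-fold and 3.46-fold. Trim63, the ligase MuRF1 and the best-known atrophy marker with Fbxo32, was at 398, 295, 839.8 and 347 CPM in wild type and 158, 139 and 181 in knockout, 2.95-fold lower (adjusted p = 0.00698). Wild-type replicate 3 was the highest library for Trim63, and the fall was 1.17 in log2 without it against 1.56. The Fbxo32 call (log2 change -1.09) was lost without Raptor-knockout replicate 1 or 3 and on the TPM scale, and on library totals the list had 1 higher and 9 lower genes.

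In the 30 tested genes of the autophagy machinery, 2 rose (6.67%) and 8 fell (26.7%). In 28 lysosomal genes 5 rose (17.9%) and 3 fell (10.7%). Ulk2, a kinase that starts autophagy and is held off by mTOR complex 1, was at 87.7, 89.7, 87.7 and 81.4 CPM in wild type and 45.9, 37.4 and 46.7 in Raptor knockout, a fall of the mean from 86.6 ± 3.63 to 43.3 ± 5.17 (adjusted p = 0.000196). Map1lc3b, which coats the autophagosome, fell 1.94-fold, and Becn1, of the lipid kinase complex, 1.69-fold. Tfeb, the transcription factor of lysosomal genes, fell from 23.0 ± 0.808 to 9.23 ± 3.07 CPM. Npc1, the lysosomal cholesterol exporter, fell 2.34-fold, while Lgmn, a lysosomal protease also rich in macrophages, rose 2.40-fold. Of 38 proteasome genes 4 rose (10.5%, near the 8.73% over all genes) and 1 fell (2.63%, below the 9.43% over all genes). Psmb1, a core subunit, went from 101 ± 5.06 to 168 ± 2.97 CPM, and the proteasome activator Psme4 from 239.5 ± 25.1 to 92.1 ± 1.46. Without Raptor-knockout replicate 1 the autophagy and lysosome genes together were 3 higher and 10 lower (7 and 11 with it) and the proteasome genes 1 and 1. Without replicate 3 they were 2 and 10, and 1 and 1, and without wild-type replicate 4 the proteasome genes were 7 and 2. On library totals the proteasome genes were 12 and 1, and with mt-Rnr2 as a covariate 8 and 3. Among libraries lacking Xist the autophagy and lysosome genes were 1 and 10.

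Of 53 tested extracellular matrix genes 21 rose (39.6%) and none fell (median log2 change 0.60), among them 8 of 19 collagens. Cilp, a matrix protein first known from cartilage, was at 46.7, 27.5, 22.4 and 27.0 CPM in wild type and 292, 169.7 and 325 in Raptor knockout, 8.48-fold higher (adjusted p = 4.51e-06). Thbs4, a thrombospondin of the myotendinous junction, was at 55.7, 51.5, 50.5 and 51.6 CPM and 149, 169 and 125, 2.82-fold higher. The groups did not overlap for either gene. Fn1, fibronectin, rose 3.35-fold, Col3a1 2.88-fold and Col1a1 2.55-fold. Smad3, which carries TGF-beta and myostatin signals to the nucleus, fell from 42.7 ± 11.7 to 17.96 ± 4.50 CPM. On the TPM scale without a filter the matrix count was 13 higher.

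Markers of some other cell types also rose. The lists are not separate from the matrix list: 3 of the 5 fibro-adipogenic markers that rose (Col1a1, Col3a1 and Lum) and 1 of the 3 tenocyte markers (Thbs4) are matrix genes already counted above. Fibro-adipogenic cells, the main matrix producers of muscle, had 5 of 14 markers higher (35.7%) and none lower. Their summed level was 1094 to 1738 CPM in wild type and 1777 to 1964 in Raptor knockout. Dcn, decorin, a marker that did not pass, was at 551 ± 113 and 567 ± 109.7 CPM. Tenocytes had 3 of 5 markers higher, among them Tnmd, tenomodulin (4.31 ± 0.991 to 9.70 ± 0.785 CPM), with sums of 97.6 to 129 and 186 to 245. Most of the difference between these sums was in Thbs4 (mean 52.3 to 147 CPM). The other 2 tenocyte markers, Fmod and Chad, did not pass (log2 change -0.05 and -0.38). Macrophages and monocytes had 5 of 14 higher (35.7%) and none lower, with sums of 91.2 to 159 and 138 to 280.2, groups that overlap. Their Lgals3, galectin-3, rose from 7.48 ± 2.31 to 21.2 ± 6.09 CPM. Endothelium had none of 11 called, with sums of 205 to 302 and 208 to 256, and Schwann cells and adipocytes had none called of 7 and 6. Red blood cell genes had 1 of 5 higher, with sums of 1666 to 3363 CPM in wild type and 2177 to 10013.5 in knockout, the highest being replicate 2. Of the markers of muscle fibres themselves, all 10 were tested, 1 rose and 4 fell, and their sum was 119261 to 141323 CPM in wild type and 103215 to 115038 in knockout. Most of the difference between these sums was in Ttn (mean 20993.5 to 10540 CPM) and Neb (11418 to 5397 CPM), which did not pass. Fibre markers also share genes with the lists above, among them Tnnt3, Ryr1, Ttn and Neb. The part of any of these cell types in the results was not tested. Without Raptor-knockout replicate 1 the macrophage count was 1 and the fibro-adipogenic count 3. Without replicate 3 they were 2 and 3, and the macrophage count was 3 without wild-type replicate 1, 2 or 3. With mt-Rnr2 as a covariate they were 2 and 3, and among libraries lacking Xist 1 and 3.

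**Figure D5:**
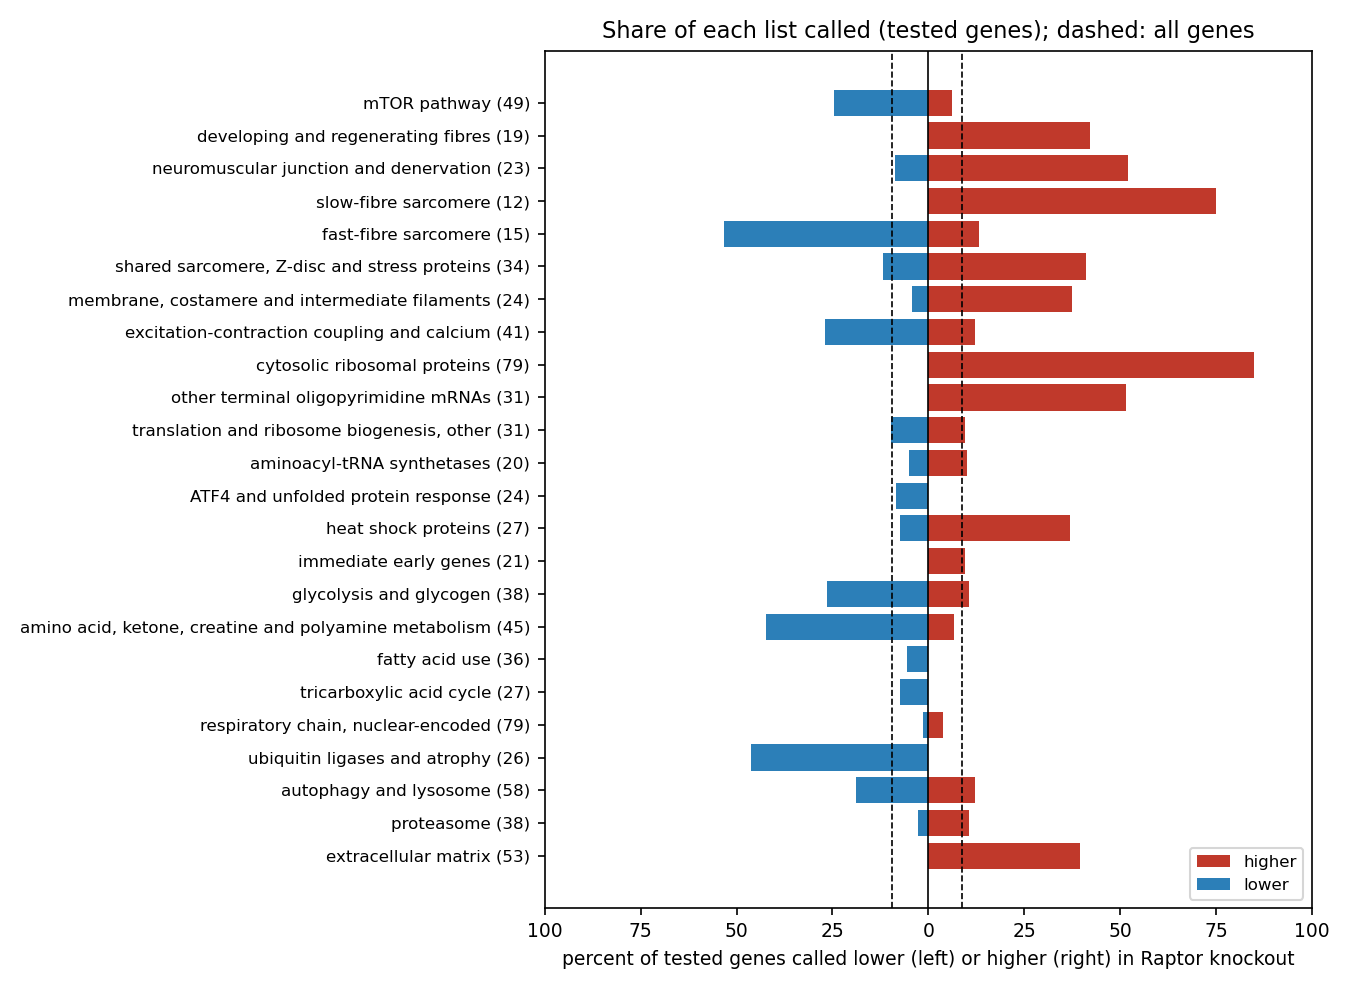
Percent of tested genes called higher (right) and lower (left) in Raptor knockout for 24 gene lists, with dashed lines at the percentages over all 10505 genes, 8.73% higher and 9.43% lower. Ribosomal proteins, the slow-fibre sarcomere, junction genes and other TOP mRNAs reach farthest to the right, and fast-fibre, atrophy and amino acid genes farthest to the left.

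Several of the largest changes lay outside the lists. Tubb6, a beta-tubulin that rises in regenerating and dystrophic fibres, was at 15.2, 10.01, 7.40 and 11.7 CPM in wild type and 97.9, 50.6 and 159 in Raptor knockout, 9.28-fold higher (adjusted p = 4.55e-05). Nfkb2, a subunit of the non-canonical NF-kappa B pathway, rose 6.04-fold, from 7.35 ± 3.95 to 44.1 ± 14.4 CPM, and Cpne2, a copine that binds membranes in the presence of calcium, rose 4.97-fold. Replicate 2 was the lowest of the 3 knockout libraries for each of these. Among the falls, Ctxn3, a small membrane protein, went from 63.4 ± 9.21 to 8.65 ± 1.63 CPM (7.33-fold, adjusted p = 5.41e-07) and Sorbs2, an adaptor of the Z-disc and costamere, from 64.3 ± 8.19 to 12.7 ± 3.55 (5.06-fold).

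Raptor-knockout and double-knockout muscle differed in few called genes. In the same edgeR fit 3 of 10505 genes passed between them (0.0286%), and 997 had an unadjusted p under 0.05. Rptor did not pass (log2 change 0.08, adjusted p = 0.955). Mtor, floxed only in the double knockout, did not pass either, and its tags were not lower there (log2 change 0.80, adjusted p = 0.162). All Raptor-knockout libraries were sequenced in the larger run, while double-knockout replicates 3 and 4 are in another run's table. Irs2, the insulin receptor substrate that mTOR complex 1 activity is known to restrain, was at 28.5 ± 5.20 CPM in wild type, 17.9 ± 1.64 in Raptor knockout and 58.9 ± 14.8 (n = 4) in double knockout, a log2 difference of 1.72 ± 0.22 between the knockouts (adjusted p = 0.00616). The others were Sdhd, a membrane subunit of respiratory complex II, at 63.6 ± 22.4 CPM in Raptor knockout and 12.3 ± 3.39 in double knockout (adjusted p = 0.045), and the predicted gene Gm43778 (8.03 ± 1.42 and 0.486 ± 0.240, adjusted p = 0.0434), both named after their values were seen. In the larger run alone Irs2 passed (adjusted p = 0.00286) and Sdhd and Gm43778 did not (0.163 and 0.208). The Sdhd call was also lost on library totals (0.0718), with mt-Rnr2 as a covariate (0.06795), on TPM (0.0928) and without any 1 double-knockout library (0.0827 to 0.188), and the Gm43778 call on TPM (0.0928) and without any 1 double-knockout library (0.0861 to 0.188). On TPM the Irs2 call was lost too (0.0928). Against wild type, Irs2 fell in Raptor knockout by 0.68 in log2, a call lost without wild-type replicate 1, 2 or 3 or any 1 knockout library, on library totals (-0.49) and on TPM with a pseudocount of 1 (-0.42), and Sdhd did not pass. This count moved with the method: DESeq2's Wald test called 99 genes and edgeR without a filter on low counts 105, while without Raptor-knockout replicate 1 or 3 it was 0 and without replicate 2 it was 27. A p that misses the threshold does not show that the 2 knockouts are alike. With Xist as a covariate no gene passed and Irs2 had a log2 difference of 1.34 (adjusted p = 0.246), where 3 of the 4 double-knockout libraries but none of the 3 Raptor-knockout libraries had Xist RNA at 101 CPM or more.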

How the data were processed

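RNA was measured by QuantSeq 3′ mRNA FWD sequencing in 11 libraries. The deposited gene tables hold expected counts, made by the authors on GRCm38 with RSEM 1.3.3, STAR 2.7.0 and fastp 0.20.0 among their tools, per the submitters' processing notes, and a deposited table holds TPM, per the file headers. Annotation release, strand setting and filters are not given in the sources used here. It is thus not known whether tags of a gene and of its antisense partner were counted apart. All 7 libraries of the comparison are in the larger run's table. A further 6 columns that match no sample stayed out.

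Rounding the expected counts to integers changed 2.25% of values. In R 4.3.3 with edgeR 4.0.16, genes were filtered by filterByExpr, normalized by TMM and fitted by robust quasi-likelihood with 3 groups over all 11 libraries (8 residual degrees of freedom, common biological coefficient of variation 20.6%). Tests were two-sided, with Benjamini-Hochberg adjustment over 10505 genes at 0.05, and the standard error is the log2 change divided by the square root of F. The fit was tested on simulated data. DESeq2 1.42.0 and limma 3.58.1 (on log2 TPM) were alternatives, and each library was left out in turn. A gene at 0 counts in a library has an upper limit of 3 counts, 0.690 CPM in wild-type replicate 1. Promoter and start-site sequences came from RefSeq (GRCm38.p6) and positions from GENCODE.

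Libraries were grouped by labelled genotype, but this comparison, the genes named and the gene lists were chosen with earlier results of these data known. Genes named are Rptor and Mtor, the 15 largest called rises and falls with a mean log2 CPM of at least 3 and non-overlapping groups, the 8 called genes of highest level each way, per list up to 6 called genes of smallest adjusted p and 3 uncalled ones of highest level, and any member of a role with at most 12 members. Only some of these are described.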

Additional observations from a re-analysis of the deposited data

Results flagged for a closer look

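Some wild-type libraries lay far from the other 3 of their group, with a gap above Dixon's critical value, for 10 of the 141 genes examined, where chance gives about 1 in 20 groups. Wild-type replicate 4 was high for Akt1 (33.4 CPM), Eif4ebp2 (462 CPM), Pvalb (9332 CPM), Pygm (5889 CPM) and Tnnc2 (24461 CPM). Wild-type replicate 3, the library with Xist, was high for Junb (10.7 CPM) and Rpl36a (366 CPM) and low for Myh1 (1310.2 CPM) and Smox (56.1 CPM). Wild-type replicate 1 was high for Tpm1 (21030.1 CPM). Raptor-knockout and wild-type libraries did not overlap for any of these genes except Akt1.

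The 3 genes that differed between double knockout and Raptor knockout in edgeR's test did so by log2 differences of 1.72 for Irs2, -2.36 for Sdhd and -3.94 for Gm43778.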

How the results depend on the processing

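No paired analysis was possible because the labels give the groups no shared replicate numbers. Of 130 named genes that passed, 118 kept call and direction under all 20 alternatives. Neither count of 5 of the 42 lists moved by more than 1.5 times. From 917 higher and 991 lower genes, library totals gave 1638 and 573 with a median log2 change of 0.20 over all genes, libraries lacking Xist gave 555 and 710, and limma on TPM gave 519 lower genes with a pseudocount of 1, 507 with 0.1 and 375 without a filter. Leaving out 1 library gave 556 to 1203 higher and 584 to 1210 lower. On the TPM scale Rptor did not pass (log2 change -0.50 with a pseudocount of 1, filtered or not, and -0.85 with 0.1). The 3 genes between the knockouts became 105 with no filter, 99 with DESeq2, 15 with mt-Rnr2 as a covariate, 1 on TPM, 0 with Xist as a covariate or in libraries lacking Xist, and 0 to 27 with 1 library left out. Alternatives for that count, the covariates and the libraries titled 36 to 54 were chosen after seeing the data. Genes that did not pass changed sign: Mtor with library totals (0.18), in libraries titled 36 to 54 (0.33) and with 1 library left out (-0.13 to 0.15); Ckm with library totals (0.039); Dcn with no filter (-0.012) and with 1 library left out (-0.13 to 0.14); Rpl36al (-0.019) and Rpl3l (-0.041) with mt-Rnr2 as a covariate, Rpl3l also with 1 library left out (-0.0074 to 0.19). The causes were not tested. At this depth and spread no fold under 1.29 was called, so a gene that did not pass may still differ.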

Other observations

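A few smaller groups are set here beside the shares over all genes, 8.73% higher and 9.43% lower. Of 23 tested antioxidant and metallothionein genes 2 rose (8.70%) and 4 fell (17.4%). Gpx1, a cellular glutathione peroxidase, was at 59.1, 64.0, 60.5 and 65.8 CPM in wild type and 105, 98.5 and 113 in Raptor knockout, 1.69-fold higher (edgeR adjusted p = 0.000473). Gpx3, the secreted peroxidase, moved the other way, from 279 ± 65.7 to 115 ± 21.8 CPM, and Gstm1, a glutathione transferase, fell 2.54-fold. Of 17 circadian clock genes 2 rose (11.8%) and 3 fell (17.6%), among them Rora, a nuclear receptor that activates the core clock gene Arntl, from 166 ± 31.2 to 67.3 ± 7.50 CPM. Of 35 secreted signals and their inhibitors 6 rose (17.1%) and 4 fell (11.4%), counts that were 10 and 3 on library totals and 4 and 2 on TPM with a pseudocount of 1. Gdf11, a close relative of myostatin, fell from 7.24 ± 1.46 to 2.29 ± 0.442 CPM, and its log2 change was -0.73 against -1.63 on TPM without a filter. Without Raptor-knockout replicate 3 the counts were 1 and 2 for antioxidant genes and 5 and 2 for secreted signals, and without replicate 1 they were 1 and 3 for antioxidant genes and 1 and 2 for clock genes. The antioxidant count was 2 and 2 on library totals. Without wild-type replicate 3 the clock count was 1 and 3.

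Fold changes also differed by transcript length, taken as the longest GENCODE transcript of each gene. Of 687 tested genes under 1 kb, 18.9% were higher and 5.53% lower, with a median log2 change of 0.18. Of 655 genes over 8 kb, 5.80% were higher and 17.7% lower, with a median of -0.24. Without ribosomal protein and other TOP genes, the genes under 1 kb numbered 649, with a median of 0.15, and 15.3% were higher and 5.86% lower.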
